A study of Mus musculus with 14 samples.

Results

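The genes described here are the messenger RNAs of the cytosolic translation initiation and elongation factors, 73 of the 19525 genes in the count table. They were taken as every row whose symbol starts with Eif and a digit, with Eef1 or with Eef2, without Eif5a and Eif5a2 and without pseudogene symbols. Sorted by the step of protein synthesis they serve, they comprise 13 genes of eIF1 and eIF1A, 5 of eIF2 and its alternatives, 5 subunits of eIF2B, 4 eIF2α kinases, 14 eIF3 subunits, 12 genes of the cap-binding and helicase factors of the eIF4 class, 4 eIF4E-binding proteins, 3 genes of eIF5, eIF5B and eIF6, 5 of eEF1, Eef2 with its kinase, and 6 methyltransferases that modify eEF1A or eEF2. Of these, 61 had a mean level of at least 5 CPM (a gene's count relative to its library's total, scaled by edgeR's TMM factors) over all libraries and are called expressed in what follows. The other 12 averaged at most 1.05 CPM with no count above 34, namely 8 genes numbered in the Eif1ad series, Eif4a3l1, Eif4a3l2, Eif4ebp3 and Eef1akmt3.

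The libraries were made from polyadenylated RNA of the cytosolic lysate that was also used for polysome profiling. 4T1 is a mouse triple-negative breast cancer line, here grown as spheroids on soft agar for 5 days in a lung-like medium (LLM). ASP shSCR (n = 4) were control-hairpin spheroids with 700 µM aspartate, and NoASP shSCR (n = 3) were control-hairpin spheroids without added aspartate. ASP shGRIN2D (n = 3) and ASP shDHPS (n = 4) carried a hairpin against Grin2d, which encodes an NMDA receptor subunit, or against Dhps, which encodes deoxyhypusine synthase, the enzyme that modifies eIF5A. Both received 700 µM aspartate, and these libraries include neither knockdown without it. Every line carried a lentiviral hairpin as a selected pool of cells, with 1 hairpin per gene named in the labels. The study's methods describe 4 independent spheroid pellets per condition for the polysome profiling whose input gave this RNA. Replicate 1 of NoASP shSCR and replicate 4 of ASP shGRIN2D are not among the libraries. The labels do not say how replicate numbers relate to cultures across groups, so p-values measure the spread between these samples.

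Library totals ran from 12731123 to 23231378 counts. Dhps lay between 5.46 and 9.08 CPM in the 4 ASP shDHPS libraries against 16.7 to 22.1 CPM in ASP shSCR, a log2 fold change of -1.48 (SE 0.15, edgeR's quasi-likelihood test, Benjamini-Hochberg adjusted p = 8.31e-06). Grin2d was low throughout, with 2.06 to 3.13 CPM in ASP shGRIN2D against 3.23 to 4.16 CPM in ASP shSCR, and did not pass the same test (log2 fold change -0.55, SE 0.28, adjusted p = 0.516), so its silencing was not shown by the test. ASP shGRIN2D and ASP shSCR did not overlap, but ASP shDHPS 1 (2.21 CPM) and NoASP shSCR 2 (3.05 CPM) lay within the ASP shGRIN2D range. Epithelial markers fitted the labelled cell line, with Krt8 between 1261 and 1787 CPM. Ptprc, Pecam1, Cdh5, Lyz2 and Dcn, markers of leukocytes, endothelium, macrophages and fibroblasts, had at most 12 counts in any library, while the fibroblast marker Pdgfra ranged from 22.7 to 40.7 CPM. Replicate 2 of both control-hairpin groups, NoASP shSCR 3 and ASP shDHPS 1 stood apart among the members, as the plot of all members by library shows.

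Translation of most messenger RNAs starts when eIF4E binds the cap, eIF4G and the helicase eIF4A open the leader, and a small ribosomal subunit carrying eIF1, eIF1A, eIF3 and the eIF2 complex with initiator tRNA scans to the start codon. eIF2B recharges eIF2 with GTP, and stress kinases that phosphorylate eIF2α block that recharging. During elongation eEF1A brings aminoacyl tRNAs and eEF2 moves the ribosome along. The RNA of many of these factors carries a pyrimidine-rich start, the terminal oligopyrimidine tract, through which mTOR signalling controls their translation.

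The start of the transcript is therefore shown for a few members. RefSeq promoter sequences (GRCm38.p6) were available for 50 members with 60 annotated starts, and the window taken ran from 15 bases before to 15 bases from each start on the transcribed strand. A run of at least 8 bases that were all C or T, searched on that strand only, lay in 12 of the 60 windows (20%) against 3943 of 32851 windows of all genes (12%). Since the window begins before the annotated start, such a run need not lie at the first base of the RNA. The windows below were chosen to show long runs in an elongation factor, 2 eIF3 subunits, an eIF2 subunit and an eIF2B subunit, and to show the start of Eif1ad, whose RNA differed most clearly between groups. Capitals mark the longest pyrimidine run of each window, and the Eif1ad window holds none of that length.
Eef1a1 (chr9:78481710-78481739, minus strand): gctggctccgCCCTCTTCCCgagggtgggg
Eif3f (chr7:108934400-108934429, plus strand): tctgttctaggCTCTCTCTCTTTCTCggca
Eif3l (chr15:79075208-79075237, plus strand): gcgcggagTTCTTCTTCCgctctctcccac
Eif2s3x (chrX:94212637-94212666, minus strand): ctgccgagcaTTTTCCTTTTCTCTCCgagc
Eif2b5 (chr16:20498802-20498831, plus strand): CCTTCCTCTTTCTCTCCCTgcaactacacc
Eif1ad (chr19:5366798-5366827, plus strand): atccggctttcgatggcttttgtttctcca

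RNA levels differed widely between roles. Per kilobase of the principal annotated transcript of each gene, Eef1a1, which delivers aminoacyl tRNA, stood highest at 5444 ± 431 CPM per kilobase (SD over the 14 libraries of all groups), and Eef2, which translocates the ribosome, reached 1171 ± 96.5. The helicase Eif4a1 followed at 658 ± 38.2, the eEF1 subunit Eef1g at 586 ± 67.5 and the start codon factor Eif1 at 544 ± 65.4. Among eIF3 subunits, which form 1 complex, all but Eif3j1 and Eif3j2 lay between 82.3 (Eif3m) and 287 (Eif3h) CPM per kilobase. The cap-binding protein Eif4e lay at 38.1 ± 4.92, below the scaffold Eif4g1 at 105 ± 10.5. Its inhibitors Eif4ebp1 and Eif4ebp2 lay at 56.2 ± 7.24 and 35.5 ± 5.02. The exchange factor subunits ranged from 11.0 (Eif2b4) to 33.4 (Eif2b5) CPM per kilobase. Low levels were found in several roles. The eIF2α kinases lay between 4.74 (Eif2ak3) and 12.1 (Eif2ak2) CPM per kilobase, and the methyltransferases between 5.13 (Eef1aknmt) and 20.4 (Eef1akmt1). Eef2k, the kinase of eEF2, was lowest of all at 2.95 ± 0.571. Levels of several members are uncertain because gene copies share their sequence: 72.3% of the 31-base words of Eef1a1, 67.6% of those of Eif4a1, 68.1% of those of Eef1g and 94.9% of those of Eif3j2 also occurred in other genes. Eif4g2 was left out here, since its annotated principal transcript of 742 bases is a fragment.

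**Figure D1:**
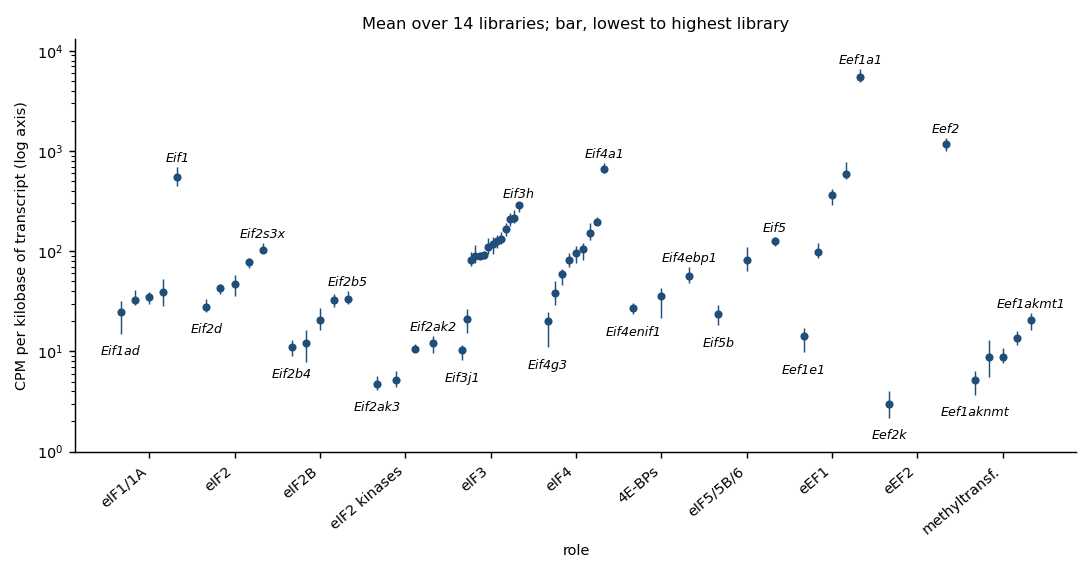
Level of 60 expressed members by role, in CPM per kilobase of transcript on a log axis; points are means over the 14 libraries and bars run from the lowest to the highest library. The members with the highest and lowest level of each role are named, and Eef1a1 and Eef2 stand above all others while Eef2k is lowest.

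Together the members took 2.61% to 3.04% of all counts, and Eef1a1 and Eef2 alone made up 46.3% to 51.8% of that. Their summed level was 27319 ± 863 CPM in ASP shSCR (SD, n = 4), 26659 ± 687 in NoASP shSCR (n = 3), 27596 ± 701 in ASP shGRIN2D (n = 3) and 27685 ± 2210 in ASP shDHPS (n = 4). The group means of the sum lay closer together than the SD within ASP shDHPS, whose replicate 1 held the highest sum of all libraries. In bulk RNA a lower level per cell and fewer cells with the RNA cannot be told apart.

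**Figure D2:**
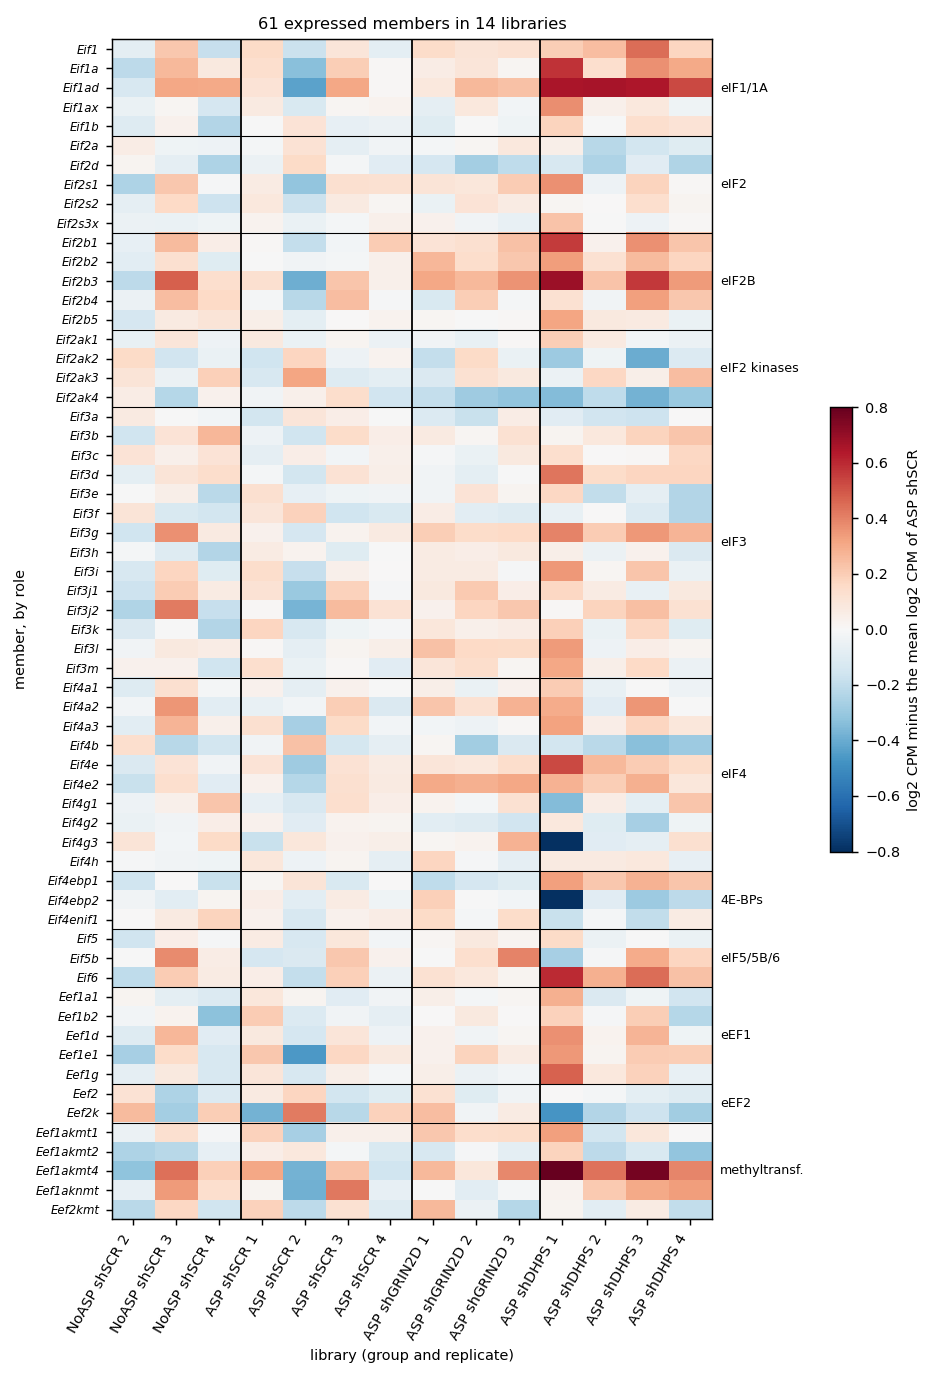
Log2 CPM of the 61 expressed members in each of the 14 libraries, minus the member's mean log2 CPM in ASP shSCR; rows are members by role, columns are libraries, red is higher and blue is lower. Eif1ad is red in all 4 ASP shDHPS libraries, and replicate 1 of that group differs from the other 3 in Eif4g3 and Eif4ebp2.

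The first question was what aspartate changed in control spheroids, and among the members it was answered with no call. None of the 73 members passed an adjusted p of 0.05 in ASP shSCR against NoASP shSCR, where 0% of all 19525 genes did (edgeR's quasi-likelihood test with Benjamini-Hochberg adjustment, also 0 members with DESeq2). At an unadjusted p under 0.05 there were 0 of 61 expressed members, against 0.597% of all genes of at least 5 CPM, and 0 members had groups that did not overlap, against 1.91%. The log2 fold changes ran from -0.15 to 0.18 with a median of 0.01, and 32 were positive and 29 negative. Each of the 61 intervals (95%) lay within 1.5-fold in either direction, so a larger difference lay outside the interval of every expressed member. These p-values and intervals come from a fit by group only, which did not use the pairing by replicate number that the data gave here. With the replicate number as a block edgeR's test also called 0 members.

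The core factors show how small the differences were. Eef1a1 measured 10455, 9969, 9199.7 and 9634 CPM in ASP shSCR and 9957, 9289 and 9079 CPM in NoASP shSCR, a log2 fold change of 0.06 (95% interval -0.15 to 0.26). Eif4e measured 189, 144, 190.3 and 184 CPM with aspartate and 162, 189.9 and 172 CPM without (log2 fold change 0.02, interval -0.20 to 0.24). The ranges of both genes overlapped, and the lowest Eif4e value of all libraries was that of ASP shSCR 2. Eif2s1, the eIF2α subunit itself, gave 0.01 (interval -0.24 to 0.26), and Eif3a, the largest eIF3 subunit, gave -0.01 (-0.20 to 0.17). The largest positive values belonged to Eef1akmt2, a lysine methyltransferase of eEF1A, at 0.18, and to the eIF3 subunits Eif3k and Eif3h at 0.12 and 0.12. The largest negative values were -0.15 for Eif1ad, -0.15 for Eif5b, which joins the subunits, and -0.14 for Eif2b3. All 6 had an adjusted p of 1 by edgeR's quasi-likelihood test with Benjamini-Hochberg adjustment.

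**Figure D3:**
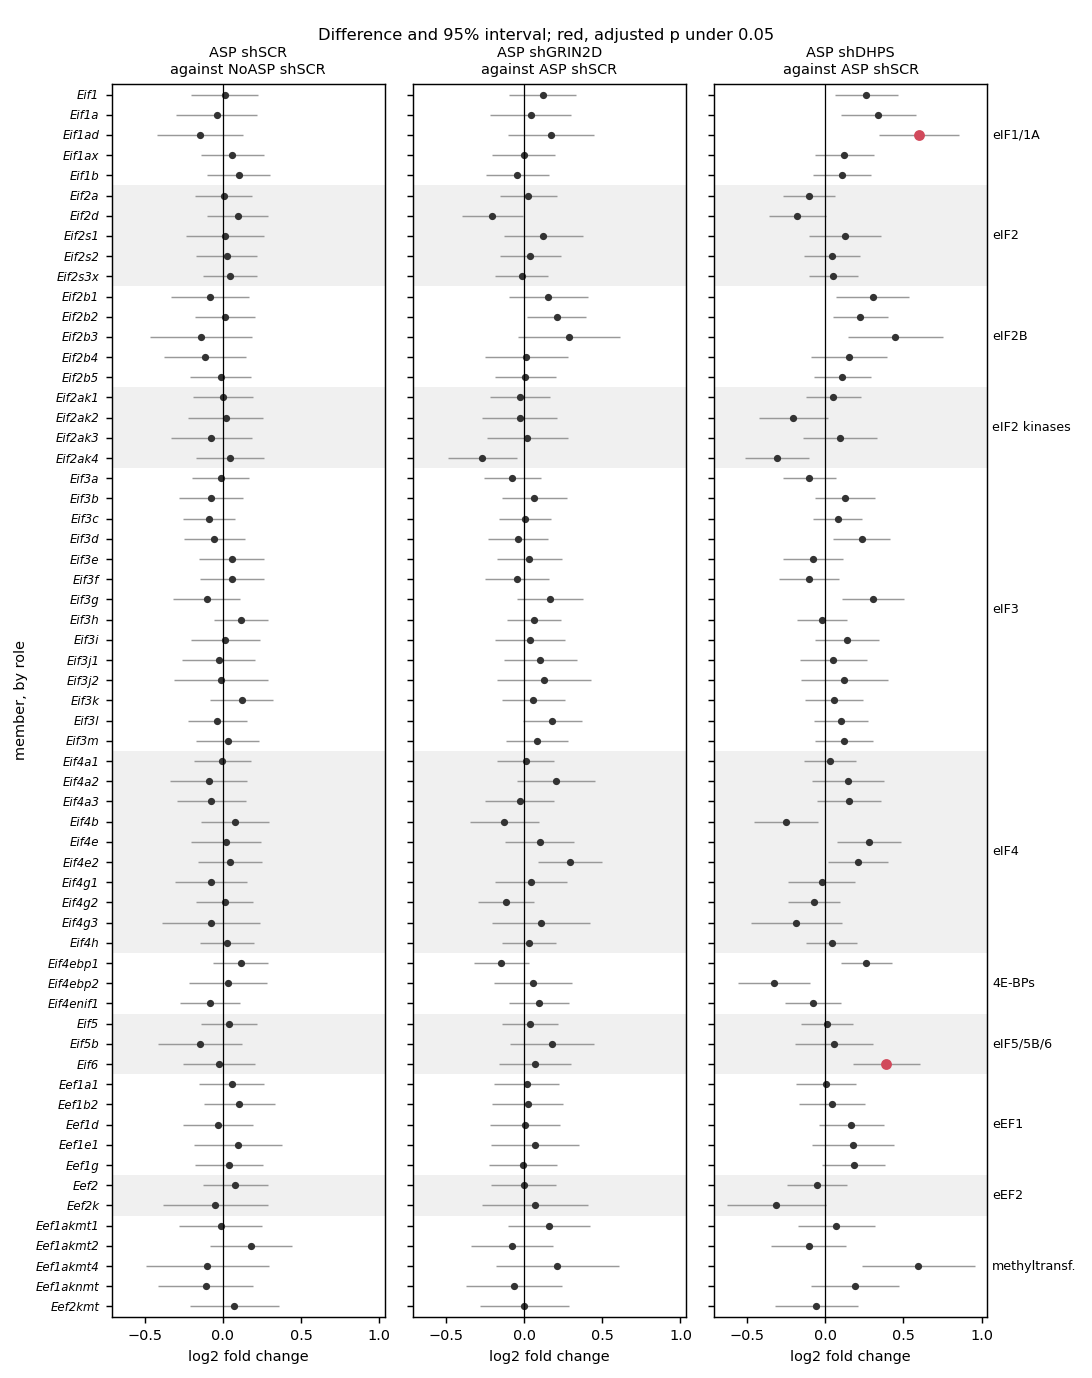
Log2 fold change (points) with its 95% interval (bars) of the 61 expressed members by role in 3 comparisons that share the ASP shSCR libraries; red points passed an adjusted p of 0.05. In the panel for aspartate and in that for the Grin2d hairpin no point is red, and in the panel for the Dhps hairpin Eif1ad and Eif6 are.

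The Grin2d hairpin changed no member past the threshold either. None of 73 passed an adjusted p of 0.05 in ASP shGRIN2D against ASP shSCR, where 1.16% of all genes did (edgeR's quasi-likelihood test with Benjamini-Hochberg adjustment). DESeq2 also called 0 members, against 2.25% of all genes. At an unadjusted p under 0.05 there were 8 of all 73 members and 4 of 61 expressed members (6.56%), against 13.4% of all genes of at least 5 CPM. Groups did not overlap in 7 expressed members (11.5%), 5 higher and 2 lower, against 17.1% of those genes. Both shares of members were below that background. The median log2 fold change of the expressed members was 0.04, that of all genes of at least 5 CPM 0.01, and the range was -0.27 to 0.29.

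Among expressed members the smallest p in this comparison belonged to Eif4e2, a cap-binding homologue of eIF4E. It measured 119.7, 118 and 120.2 CPM in ASP shGRIN2D and 99.4, 82.9, 106 and 102 CPM in ASP shSCR. The 3 knockdown libraries lay above all 4 controls (log2 fold change 0.29, SE 0.098, edgeR's quasi-likelihood test, Benjamini-Hochberg adjusted p = 0.21). Eif4e2 was called in 1 alternative, a fit with an offset for transcript length and GC content, added after seeing the data (log2 fold change 0.29, edgeR adjusted p = 0.0452). Eif2b3, a subunit of the exchange factor, measured 19.6, 19.0 and 20.3 CPM against 17.4, 12.1, 18.5 and 16.3 CPM (log2 fold change 0.29, interval -0.04 to 0.62), and the value was 0.17 without ASP shSCR 2. All 5 eIF2B subunits had positive values, from 0.01 to 0.29, of which none passed the test. In all 5 the lowest ASP shSCR library was replicate 2, which stood apart. At the other end lay Eif2ak4, which encodes the amino acid sensing kinase GCN2, at -0.27, and Eif2d, an alternative initiator tRNA carrier, at -0.20 (intervals -0.49 to -0.05 and -0.40 to -0.01). Eef1akmt4 gave 0.21 with an interval of -0.18 to 0.61.

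The Dhps hairpin gave the clearest differences. Eif1ad and Eif6, whose products act on maturing small and large ribosomal subunits, rose in ASP shDHPS against ASP shSCR. They were called by edgeR's fit by group, which called no member lower. These 2 of 73 members compare with 4.22% of all 19525 genes (1.65% higher and 2.57% lower), and among the 61 expressed members with 6.93% of genes of at least 5 CPM, by edgeR's quasi-likelihood test with Benjamini-Hochberg adjustment. DESeq2 called 7 members, against 7.16% of all 19525 genes, with Eif4ebp1, Eif2b3, Eif3g and Eef1akmt4 also higher and Eif2ak4 lower. At an unadjusted p under 0.05 there were 18 of 73 members and 16 of 61 expressed members (26.2%, 13 higher and 3 lower), against 28.4% of genes of at least 5 CPM. Groups did not overlap in 14 expressed members (10 higher and 4 lower), against 16.7%. The median log2 fold change of the expressed members was 0.08 against -0.0038 for all genes of at least 5 CPM, with 43 positive and 18 negative.

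Eif1ad (ENSMUSG00000024841) encodes a protein with an eIF1A-like domain. Its level was 80.9, 80.9, 80.5 and 74.2 CPM in ASP shDHPS and 55.4, 38.2, 63.8 and 51.6 CPM in ASP shSCR. In NoASP shSCR it was 46.9, 63.7 and 63.3 CPM, and in ASP shGRIN2D 54.5, 61.4 and 60.5 CPM. Every ASP shDHPS library was above every library of the other 3 groups. Against ASP shSCR the gene was 1.51-fold higher (95% interval 1.27 to 1.81; log2 fold change 0.60, SE 0.12, edgeR's quasi-likelihood test, Benjamini-Hochberg adjusted p = 0.00685). The lowest control value belonged to ASP shSCR 2, a library that stood apart. Without it the log2 fold change was 0.47 and the edgeR adjusted p = 0.0182, and the call stood in each of the 16 alternative fits. Against ASP shGRIN2D the log2 fold change was 0.43 (interval 0.15 to 0.71) and did not pass (edgeR adjusted p = 0.0939), so in that fit the effect of the Dhps hairpin was not shown to differ from that of the Grin2d hairpin. The same difference passed with DESeq2 (adjusted p = 0.0497), in the edgeR fit of the groups compared only (0.0132) and in the edgeR fit without both control-hairpin libraries numbered 2 (0.00587). It also passed with the replicate number as a block (edgeR adjusted p = 0.0126). Exons of Eif1ad overlap those of Banf1 on the opposite strand over 428 bases; the kit keeps strand, but the counting setting is not given in the sources used here. Banf1 itself averaged 172 CPM in ASP shDHPS and 171 CPM in ASP shSCR (log2 fold change 0.01, SE 0.10). The 8 numbered Eif1ad genes are separate genes with at most 20 counts in any library, and edgeR's fit by group on all genes called none. Of these, Eif1ad7 was called lower with the Dhps hairpin in 3 alternative edgeR fits. They were the replicate block, the offset for length and GC content, and filterByExpr (adjusted p = 0.0373, 0.0457 and 0.0289).

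Eif6 (ENSMUSG00000027613) encodes a factor that is needed for large subunit maturation and holds that subunit apart from the small one. It measured 166, 134, 149 and 129 CPM in ASP shDHPS and 113, 95.9, 125 and 106 CPM in ASP shSCR. The groups did not overlap, although the lowest ASP shDHPS value, in replicate 4, was close to the highest control value, in replicate 3. The gene was 1.31-fold higher (95% interval 1.13 to 1.52; log2 fold change 0.39, SE 0.10, edgeR's quasi-likelihood test, Benjamini-Hochberg adjusted p = 0.0324). Levels were 95.2, 126 and 115 CPM in NoASP shSCR and 119, 116 and 111 CPM in ASP shGRIN2D, all below the lowest ASP shDHPS library. Single libraries decided the call: the edgeR adjusted p was 0.0512 without ASP shSCR 1, 0.117 without ASP shSCR 2, 0.0879 without ASP shSCR 4, 0.0865 without ASP shDHPS 1 and 0.092 without ASP shDHPS 3, with log2 fold changes from 0.32 to 0.40. Without both control-hairpin libraries numbered 2 it was 0.0636. Gm16098, antisense to Eif6 over 138 bases, averaged 0.483 CPM in ASP shDHPS and 0.115 CPM in ASP shSCR.

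**Figure D4:**
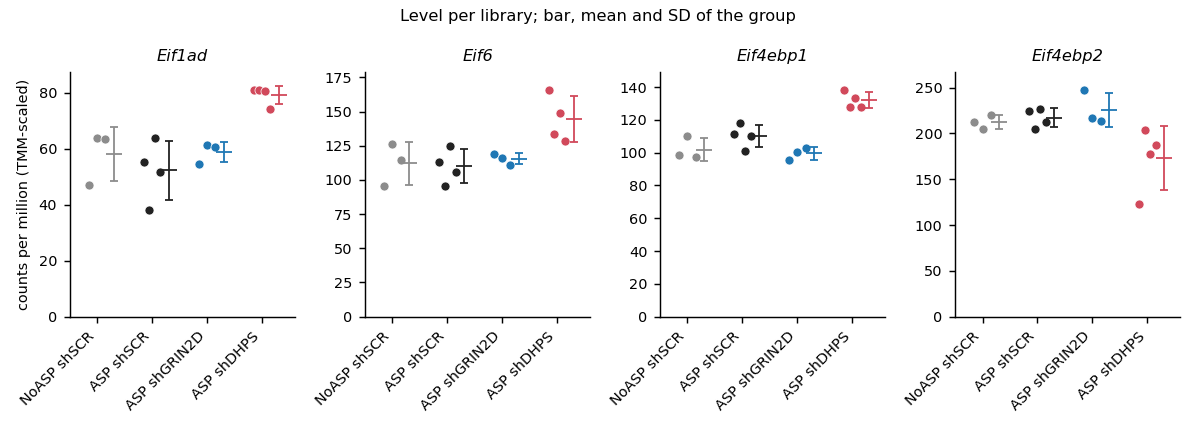
Level of Eif1ad, Eif6, Eif4ebp1 and Eif4ebp2 in each library, in CPM on axes that start at 0; points are libraries by group, and the bars beside them give the group mean and SD (n = 4, 3, 3 and 4 for ASP shSCR, NoASP shSCR, ASP shGRIN2D and ASP shDHPS). The ASP shDHPS points of Eif1ad, Eif6 and Eif4ebp1 lie above all points of the other groups and those of Eif4ebp2 below them, the highest of these only just.

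The proteins that bind eIF4E and keep it from eIF4G had values of opposite sign. Eif4ebp1 (ENSMUSG00000031490) measured 138, 128, 134 and 128 CPM in ASP shDHPS, 95.5, 100.2 and 103 CPM in ASP shGRIN2D and 111, 118, 101 and 110.4 CPM in ASP shSCR. It was the 1 member called between the knockdowns by edgeR's fit by group. ASP shDHPS was 1.33-fold higher than ASP shGRIN2D (95% interval 1.17 to 1.50, log2 fold change 0.41, SE 0.086, edgeR's quasi-likelihood test, Benjamini-Hochberg adjusted p = 0.00891). Against ASP shSCR the values were 0.26 for ASP shDHPS (edgeR adjusted p = 0.0632) and -0.15 for ASP shGRIN2D (adjusted p = 0.585), neither of which passed. The first did with DESeq2 (adjusted p = 0.00691), with edgeR after filterByExpr, a filter on low counts (0.0376), and with the replicate number as a block in edgeR (0.0267). Values in NoASP shSCR were 98.3, 110.0 and 97.1 CPM. Without ASP shGRIN2D 1, the library with the lowest value, the difference between knockdowns was 0.38 and no longer passed (edgeR adjusted p = 0.085). DESeq2 called 3 members, Eif4ebp1, Eif1ad and Eif4ebp2, against 4.71% of all genes. The 1 call of 73 by edgeR compares with 2.82% of all genes in ASP shDHPS against ASP shGRIN2D. At an unadjusted p under 0.05 there were 10 of 73 members and 7 of 61 expressed members (11.5%), against 20.5% of genes of at least 5 CPM, and groups did not overlap in 15 (24.6%), against 21.5%. The other values farthest from 0 between the knockdowns were 0.43 for Eif1ad, -0.39 for Eif4ebp2, -0.38 for Eef2k, 0.38 for Eef1akmt4, 0.32 for Eif6, 0.30 for Eif1a and -0.29 for the scaffold Eif4g3. None of these was called in edgeR's fit by group. With the replicate number as a block, edgeR also called Eif1ad, Eif4ebp2, Eif6 and Eif4g3 (adjusted p = 0.0126, 0.0105, 0.0189 and 0.0154). That fit called 7.52% of all genes. Eif4g3 rested on ASP shDHPS 1, without which it was -0.12.

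Eif4ebp2, the paralogue, measured 123, 204, 178 and 188 CPM in ASP shDHPS against 225, 205, 227 and 212 CPM in ASP shSCR and 247, 217 and 214 CPM in ASP shGRIN2D. NoASP shSCR had 212.4, 204.4 and 220.5 CPM. All 4 ASP shDHPS libraries lay below all others, but replicate 2, at 203.7 CPM, only just below NoASP shSCR 3 and ASP shSCR 2 (204.98 CPM). Replicate 1 lay far below the other 3. The log2 fold change was -0.33 against ASP shSCR and -0.39 against ASP shGRIN2D, with edgeR adjusted p = 0.10 and 0.092, so neither passed. Replicate 1 carried much of both, as they were -0.20 and -0.25 without it (edgeR adjusted p = 0.192 and 0.136). Without ASP shDHPS 2 both passed, at -0.42 and -0.47 (edgeR adjusted p = 0.0476 and 0.0438), and the second also passed with DESeq2 (0.0425). With the replicate number as a block both passed too (edgeR adjusted p = 0.0173 and 0.0105). The ratio of Eif4ebp1 to Eif4ebp2 in CPM was 0.796 ± 0.223 (SD, n = 4) in ASP shDHPS, 0.509 ± 0.0539 in ASP shSCR, 0.481 ± 0.0512 in NoASP shSCR and 0.443 ± 0.0505 in ASP shGRIN2D, given as a description with no test. Eif4enif1, a transporter of eIF4E, gave -0.08 against ASP shSCR.

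The other roles are given by their spread, since edgeR's fit by group called no further member with the Dhps hairpin. With the replicate number as a block edgeR called 15 members, against 11% of all genes. They included Eif1, Eif1a, Eif3g, Eif4b and Eif4e (adjusted p = 0.016, 0.00737, 0.0106, 0.0368 and 0.0206). Eif2b1 and Eif2b3 were also among them (0.0382 and 0.00549). Whether same-numbered libraries pair in this comparison was not settled. All 5 expressed genes of eIF1 and eIF1A, Eif1ad among them, were positive, with Eif1 at 0.26 and Eif1a at 0.34 (edgeR adjusted p = 0.131 and 0.104). The library that stood apart, ASP shSCR 2, was the lowest control in Eif1, Eif1a, Eif1ax and Eif1ad and the highest in Eif1b. All 5 eIF2B subunits were positive as well, with a median of 0.22, and edgeR's fit by group called none. ASP shSCR 2, which both hairpin comparisons share, was the lowest control in all 5. Its log2 deviations from the mean of its group's other libraries ran from -0.03 (Eif2b2) to -0.52 (Eif2b3). Eif2b3 measured 25.5, 18.6, 23.4 and 20.1 CPM in ASP shDHPS, above all 4 ASP shSCR libraries given above but overlapping NoASP shSCR, where replicate 3 had 22.1 CPM (log2 fold change 0.45, edgeR adjusted p = 0.0871, DESeq2 adjusted p = 0.0499). Of 14 eIF3 subunits 10 were positive, from -0.11 to 0.30 with Eif3g highest at 0.30 (edgeR adjusted p = 0.0739). In the eIF4 class 6 of 10 expressed genes were positive. The cap-binding Eif4e stood at 0.28 and Eif4b, which stimulates the helicase, at -0.25 (edgeR adjusted p = 0.114 and 0.159), and Eif4e passed in the edgeR fit with an offset for length and GC content (0.0351). The helicases Eif4a1 and Eif4a2 gave 0.03 and 0.15, Eif4g1 -0.02, Eif2s1 0.13, and Eif5, which makes eIF2 hydrolyse GTP, 0.01. Their intervals were -0.14 to 0.20, -0.08 to 0.38, -0.24 to 0.19, -0.11 to 0.36 and -0.16 to 0.18 in that order.

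Eef1akmt4, a lysine methyltransferase of eEF1A, had a log2 fold change about as large as Eif1ad but at a low level. It measured 14.9, 11.1, 13.9 and 10.7 CPM in ASP shDHPS and 10.1, 6.29, 9.56 and 7.31 CPM in ASP shSCR, with no overlap. The test did not pass (log2 fold change 0.59, SE 0.17, edgeR's quasi-likelihood test, Benjamini-Hochberg adjusted p = 0.0548). Eef1akmt4 passed with DESeq2 (adjusted p = 0.0239), and with edgeR without ASP shSCR 1 (0.0371) or without ASP shDHPS 4 (0.0415). It also passed with the replicate number as a block (edgeR adjusted p = 0.00153). Its exons overlap Gm49333 on the same strand over 495 bases and Alg3 on the opposite strand over 143 bases, and 43.8% of its 31-base words occur in other genes, so its counts are uncertain. Alg3 measured 11.3 ± 1.24 CPM in ASP shDHPS (SD, n = 4) and 7.61 ± 1.73 CPM in ASP shSCR (n = 4; log2 fold change 0.58, edgeR adjusted p = 0.105), and its part in the result was not tested. The elongation factors themselves showed small differences: Eef1a1 gave 0.00 (interval -0.19 to 0.20) with 11915, 9059, 9567 and 8835 CPM in ASP shDHPS, and Eef2 gave -0.05 (-0.25 to 0.14) with 3694, 3641, 3489 and 3425 CPM. Of both genes the ranges overlapped those of ASP shSCR. The median over the 10 expressed members with a pyrimidine run in a window around an annotated start was 0.03, and over the 39 without one 0.06. This split cannot separate RNAs with a terminal oligopyrimidine tract from others, since a run in the window need not begin at the first base.

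The kinases that restrain translation were measured one by one. Eif2ak4 (GCN2) measured 23.6, 26.2, 23.2 and 24.4 CPM in ASP shDHPS and 29.5, 30.96, 33.2 and 27.0 CPM in ASP shSCR, and in ASP shGRIN2D 26.4, 24.7 and 24.2 CPM. Libraries of both knockdowns lay below all 4 controls. Neither passed in edgeR's fit by group, with log2 fold changes of -0.31 and -0.27 (edgeR adjusted p = 0.0777 and 0.344). DESeq2 called the gene lower with the Dhps hairpin (adjusted p = 0.0209), as did edgeR with the replicate number as a block (0.0371). Both comparisons share the ASP shSCR libraries. In NoASP shSCR the gene measured 31.3, 25.7 and 30.9 CPM, overlapping ASP shSCR. Eif2ak1 (HRI), which senses haem, gave 0.05 with the Dhps hairpin (interval -0.13 to 0.23), Eif2ak2 (PKR), which senses double-stranded RNA, -0.20 (-0.43 to 0.02), and Eif2ak3 (PERK), which senses unfolded proteins in the endoplasmic reticulum, 0.09 (-0.15 to 0.33). Exons of Eif2ak1 overlap Aimp2 over 487 bases and those of Eif2ak3 overlap Gm43292 over 485 bases, both on the opposite strand. Eef2k, which slows elongation by phosphorylating eEF2, measured 14.2, 16.8, 17.7 and 16.3 CPM in ASP shDHPS and 15.2, 26.4, 17.0 and 22.5 CPM in ASP shSCR. The controls of Eef2k spread widely, with replicate 1 lowest and replicate 2 highest, and overlapped the knockdown (log2 fold change -0.31, edgeR adjusted p = 0.266). Without ASP shSCR 2 the value was -0.15.

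Other genes of the pathway were counted from lists of related functions. Of 9 genes of termination, recycling and rescue, 1 was called with the Dhps hairpin, Hbs1l, which helps to release stalled ribosomes. Over all 19525 genes the share called there was 4.22%. It measured 98.4 ± 12.2 CPM in ASP shDHPS (SD, n = 4) and 72.6 ± 4.197 CPM in ASP shSCR (n = 4; log2 fold change 0.44, SE 0.088, edgeR's quasi-likelihood test, Benjamini-Hochberg adjusted p = 0.00595). With the Dhps hairpin 0 of 10 poly(A)-binding and helicase genes, 0 of 14 kinases and phosphatases that act on the factors, 0 of 9 genes of diphthamide and selenocysteine delivery and 0 of 10 mitochondrial factors were called. The medians of the 5 lists were 0.25, 0.09, -0.01, 0.08 and 0.12 in the same order, beside 0.08 for the expressed members. In each of the other 3 comparisons 0 genes of each list were called. The shares of all genes were 0% with aspartate, 1.16% with the Grin2d hairpin and 2.82% between the knockdowns.

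Transcript length moved with the members' differences. Over the 61 expressed members the log2 fold change of ASP shDHPS against ASP shSCR had r = -0.37 and rho = -0.33 with log2 transcript length, and over 10184 genes of at least 5 CPM r = -0.32. Eif4g2 enters with its fragment of 742 bases, and without it the values were r = -0.41 and rho = -0.37 over 60 members. These are descriptions across genes, which share the same libraries and are not independent. Within groups, too, the deviation of a library from the mean of its group's other libraries went with length among the 61 members, with r = -0.56 in ASP shDHPS 1, 0.54 in ASP shDHPS 2, 0.55 in ASP shDHPS 4 and -0.53 in ASP shSCR 1. In the fit with an offset for length and GC content, Eif1ad stood at 0.56 (edgeR adjusted p = 0.00452), Eif6 at 0.32 (0.0265) and, between the knockdowns, Eif4ebp1 at 0.35 (0.00551), all past the threshold.

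**Figure D5:**
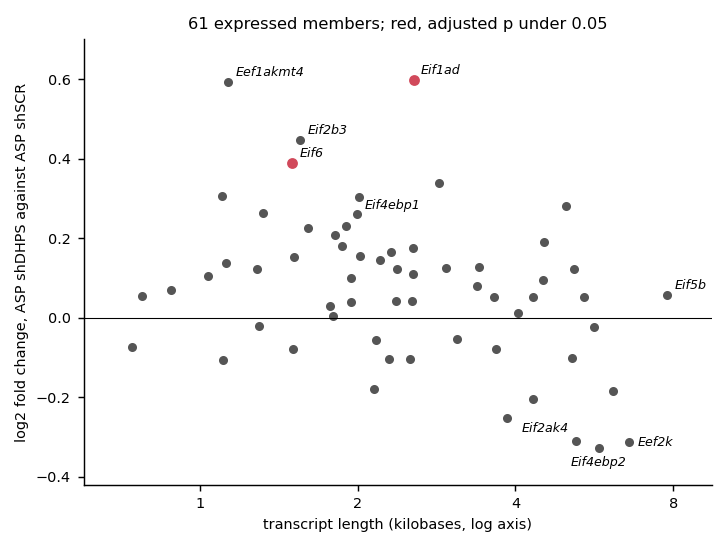
Log2 fold change of ASP shDHPS against ASP shSCR over transcript length in kilobases (log axis) for the 61 expressed members, 9 of them named and Eif4g2 placed at the length of its fragment; red points passed an adjusted p of 0.05. Eif4ebp2, Eif2ak4 and Eef2k, the lowest points, are long transcripts, while Eif1ad and Eif6, in red, are shorter.

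The libraries that stood apart bear on the calls. The median deviation of the 61 expressed members from the mean of the group's other libraries was -0.15 in ASP shSCR 2 and -0.10 in NoASP shSCR 2 on the log2 scale, and it was 0.16 in NoASP shSCR 3 and 0.15 in ASP shDHPS 1. Without ASP shDHPS 1, 1 member was called with the Dhps hairpin, against 3.27% of all genes, namely Eif1ad (log2 fold change 0.59, edgeR adjusted p = 0.0149). With both control-hairpin libraries numbered 2 left out, chosen after seeing the data, Eif1ad remained called with the Dhps hairpin (log2 fold change 0.48, edgeR adjusted p = 0.00432), and between the knockdowns Eif4ebp1 (0.41, adjusted p = 0.00483) and Eif1ad (0.43, adjusted p = 0.00587) were. With aspartate and with the Grin2d hairpin the count of members called was 0 in that fit as well.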

How the data were processed

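RNA-seq of 14 libraries was analysed from 1 table of counts per gene. Per the labels and the study's methods, the authors trimmed reads with Trim Galore 0.6.6, checked them with FastQC 0.11.9, aligned them to GRCm39 with STAR 2.6.1, quantified genes with Salmon 1.4.0 and deposited rounded counts of genes expressed in at least 2 replicates of a condition. The library kit keeps strand, while the annotation release and the strand setting are not given in the sources used here. The authors' tables of fold changes and p-values from DESeq2 1.34.0 hold their own comparisons and were not used. No column of the count table was left out. The table lists 535 genes without a symbol, which stayed in the fit.

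Library totals were 12731123 to 23231378 counts, and the lowest count of an expressed member was 93. All 19525 genes of the 14 libraries were fitted together by group with edgeR 4.0.16 (TMM, quasi-likelihood test, R 4.3.3), with Benjamini-Hochberg adjustment over all genes and a threshold of 0.05. Levels are TMM-scaled CPM, and log2 CPM used a prior count of 2. The scripts were tested on simulated data. Transcript lengths, shared sequence and exon overlaps came from a GRCm38 annotation, another build than that of the counts, so no gene coordinates are given except RefSeq starts of GRCm38.p6.

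Named members were those called, the 3 largest rises and falls per comparison and a list of core factors. Eif1, Eif1a, Eif3g, Eif4b, Eif4enif1 and the members shown by sequence were chosen after their values were seen. The members and lists were chosen with earlier results of these data known. Alternatives were DESeq2 1.42.0, RLE or no scaling, filterByExpr (13421 genes), fits of the groups compared only, the replicate number as a block, each library left out, and, after seeing the data, both control-hairpin libraries numbered 2 left out and an offset for length and GC content (18948 genes with values). Deviations of same-numbered libraries correlated at 0.51, 0.29 and 0.20 between ASP shSCR and NoASP shSCR, over genes, so the numbers were taken to pair those groups by the data and not by the labels. The main fit did not use this pairing, which entered only as the block alternative. For the other comparisons at least 1 pair was at or under 0.04. In ASP shDHPS against ASP shSCR the remaining pairs were at 0.26, 0.20 and 0.20, so pairing was left undecided there.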

Additional observations from a re-analysis of the deposited data

Results flagged for a closer look

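In ASP shSCR, replicate 2 lay apart from the other 3 libraries by Dixon's test in 3 members. Eif2ak3 (PERK) had 25.5 CPM against 18.8 to 19.4 CPM, Eif2s1 (eIF2α) 122.2 CPM against 159 to 166 CPM, and Eif4e 144 CPM against 184 to 190.3 CPM. In ASP shDHPS, replicate 4 lay apart in Eif1ad, with 74.2 CPM against 80.5 to 80.9 CPM, though still above every library of the other groups. Of 58 sets of 4 values examined, chance alone sets about 1 in 20 apart. Eif4ebp1 is listed because the effects of the 2 hairpins on it differed by a test of the difference itself, 0.41 on the log2 scale (edgeR's quasi-likelihood test, Benjamini-Hochberg adjusted p = 0.00891).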

How the results depend on the processing

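Of 1708 values of named members recomputed under 22 alternative settings, 1676 stayed on the same side of the threshold, 7 lost a call and 25 gained one. Of the uncalled values 138 changed sign, each from a reported value smaller than its SE, and no called value did. With aspartate 0 members were called in every setting; no call changed with the replicate number as a block (2 of all genes). Percentages below are shares of all genes tested. With the Dhps hairpin, where 2 were called (4.22%), DESeq2 called 7 (7.16%), filterByExpr 4 (6.82%), the replicate block 15 (11%) and the length and GC offset 4 (5.97%). The fit without both control-hairpin libraries numbered 2 called 1 (2.9%), and leaving out single libraries gave 1 to 3 (2.11% to 4.58%). Between the knockdowns, where 1 was called (2.82%), DESeq2 called 3 (4.71%), the fit of the groups compared only 2 (3.63%) and the block 5 (7.52%). There the fit without both libraries numbered 2 called 2 (4.35%). Single libraries gave 0 (1.07%, without ASP shGRIN2D 1) to 2 (2.22%, without ASP shDHPS 2). With the Grin2d hairpin the offset called 1 (2.19%) and the block 0 (3.13%). For the Dhps hairpin the check of deviations did not settle whether same-numbered libraries pair. The correlations with ASP shSCR were 0.26, 0.20, 0.20 and 0.04, and 5 of 8 libraries correlated best with their own number. That count was 1 of 6 for the Grin2d hairpin and 2 of 6 between the knockdowns. The main fit used no pairing in any comparison. With the Dhps hairpin the block called Eif1ad, Eif6, Eif1, Eif1a, Eif2b1, Eif2b3, Eif3d, Eif3g, Eif4e, Eif4ebp1 and Eef1akmt4 higher. It called Eif2ak4, Eif4b, Eif4ebp2 and Eif1ad7 lower. Between the knockdowns it called Eif4ebp1, Eif1ad, Eif4ebp2, Eif4g3 and Eif6. Eif1ad7, with at most 20 counts and 89.1% of its 31-base words shared, was called lower with the Dhps hairpin under filterByExpr, the block and the offset (-1.97, -2.01 and -1.97). The cause of these changes was not tested. Depth limits the 12 members under 5 CPM, which had at most 34 counts.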
